A study of Caenorhabditis elegans with 36 samples.

Results

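D2023.1, ZK6.8, R05H11.2, Y42H9AR.5 and doxa-1 are 5 Caenorhabditis elegans mRNAs that were strongly over-represented in RNA recovered with the silencing-complex protein AIN-2. They were taken as the array features whose platform gene symbol is one of these names, which gave 5 of the 16378 named genes on the array, each with 1 probe. All 5 could be tested, among 12061 named genes and 15732 features in all. The 5 were chosen by their IP to input ratio over the mean of the stages, among the highest of the array, so that ratio is described here and carries no test.

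The study used a strain with a single-copy integrated AIN-2::GFP transgene, and every sample carries it. Animals were grown at 20 °C on bacterial lawns. AIN-2::GFP was immunoprecipitated (IP) with a monoclonal anti-GFP antibody, and an aliquot of the same lysate, removed after the antibody and before the beads were added, served as input (total RNA). The groups are the IPs and the inputs of purified eggs (Egg, 4 lysates) and of larvae taken after 4 hours on food (L1, 4 lysates), 21 hours (L2, 3 lysates), 30 hours (L3, 4 lysates) and 42 hours (L4, 3 lysates). Cultures were independent, and a culture was kept if more than 80% of its animals were at the intended stage. The promoter and the tissues that drive AIN-2::GFP are not given in the labels. No IP from animals without the tag was analysed here, so RNA that stays on the beads for another reason cannot be told apart from RNA held through AIN-2. The samples are whole animals, in which fewer cells that make an mRNA and less of it per cell cannot be told apart.

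AIN-2 is a worm member of the GW182 family. Proteins of this family bind Argonautes that carry microRNAs and recruit the machinery that represses and deadenylates the mRNAs to which the microRNA pairs, so that an mRNA engaged by the complex can be recovered with the tagged protein. The doxa-1 gene encodes a dual oxidase maturation factor. In worms, maturation factors of this family and the tetraspanin TSP-15 act with the dual oxidase BLI-3, an enzyme of the epidermis whose hydrogen peroxide is used to cross-link tyrosines of the cuticle. The platform and gene tables give D2023.1, ZK6.8, R05H11.2 and Y42H9AR.5 only a sequence name and no role, and none is given to them here. The word uncharacterised therefore fits these 4 and not doxa-1.

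Levels below are log2 intensities after quantile normalization, and a ratio is the IP minus the input of the same lysate on that scale. Levels of different probes are not set against each other. The share of spots above background, taken as 3 times the noise of the column, was 31% to 70.4% per IP and 51.3% to 71.4% per input. Levels of replicates correlated across features with r from 0.711 to 0.938 in IPs and from 0.819 to 0.968 in inputs. Summed intensities of 11 sperm genes were 220, 305 and 42.2 in the L4 inputs of replicates 1, 3 and 10. Elsewhere they reached 14.6 in L3 replicate 2, and at most 2.82 in the other L3 inputs. Those of 7 embryonic genes did not set the Egg inputs apart (1.75 to 2.32, against 1.73 to 4.43 in larval inputs). Sums of 6 molting genes were 5.41 to 17.3 in Egg inputs, 3.34 to 5.25 at L1 and 9.69 to 25.5 from L2 to L4. Whether lysates of a stage differ in age was not tested. Precision is limited by how many arrays each group has.

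Some lysates stand apart. In 4 of them (Egg replicate 4, L3 replicates 2 and 3, L4 replicate 1) the input array had 67 to 166 spots over 65000 scanner steps, close to the top of the scale, against 0 to 13 in the other 14. The D2023.1 spot itself exceeded that limit in the IPs of L1 replicate 2 (65375 steps) and L2 replicate 3 (65051 steps), so its level there is a lower limit. The IP arrays of L3 replicate 2 and L1 replicate 2 had 109 and 69 spots over the same limit. Stage differences that were called are given below with and without the lysates with bright inputs.

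The ratio of each mRNA was high at every stage. Over the mean of the 5 stages it was 5.69 ± 0.154 (SE) for D2023.1, or 51.5-fold, and 4.58 ± 0.308 for ZK6.8, or 23.9-fold. R05H11.2 stood at 4.53 ± 0.145 (23.1-fold), Y42H9AR.5 at 4.47 ± 0.150 (22.2-fold) and doxa-1 at 4.26 ± 0.141 (19.2-fold). The median of the 5 was 4.53, against -0.09 over all 15732 features tested. All 5 exceeded 16-fold, which 0.133% of the features did, but they were chosen for high values of this same ratio. With an offset of 0.1 added to every value before log2, D2023.1 was at 5.46. R05H11.2 (3.99), doxa-1 (3.94), Y42H9AR.5 (3.87) and ZK6.8 (2.28) then fell below 16-fold.

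Without the offset, the 5 ratios held places 1, 5, 6, 7 and 9 among named genes ranked with the rule that chose them (past limma's threshold and of 1 sign in every lysate). The other 5 of the 10 highest were egl-46 (5.43), sup-18 (5.04), bre-3 (4.64), npr-29 (4.42) and lev-1 (4.25). Just outside stood Y48E1B.8 at 4.24, hbl-1 at 4.22 and pho-9 at 4.16. The gap between doxa-1 (4.26) and these 3 genes is smaller than the SE of any of them.

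"Highest in every IP" describes the mean and not each array. Among all features with a ratio in a lysate, D2023.1 ranked between 1 and 177. It was within the 10 highest in 10 of 18 lysates and the highest in 1, L4 replicate 10. ZK6.8 ranked between 8 and 2665, R05H11.2 between 5 and 475, Y42H9AR.5 between 15 and 655, and doxa-1 between 11 and 922. By the fitted stage values D2023.1 held place 1 in Egg and L4, place 2 in L2 and place 3 in L1 and L3, while doxa-1 moved between place 5 at Egg and place 79 at L3.

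**Figure D1:**
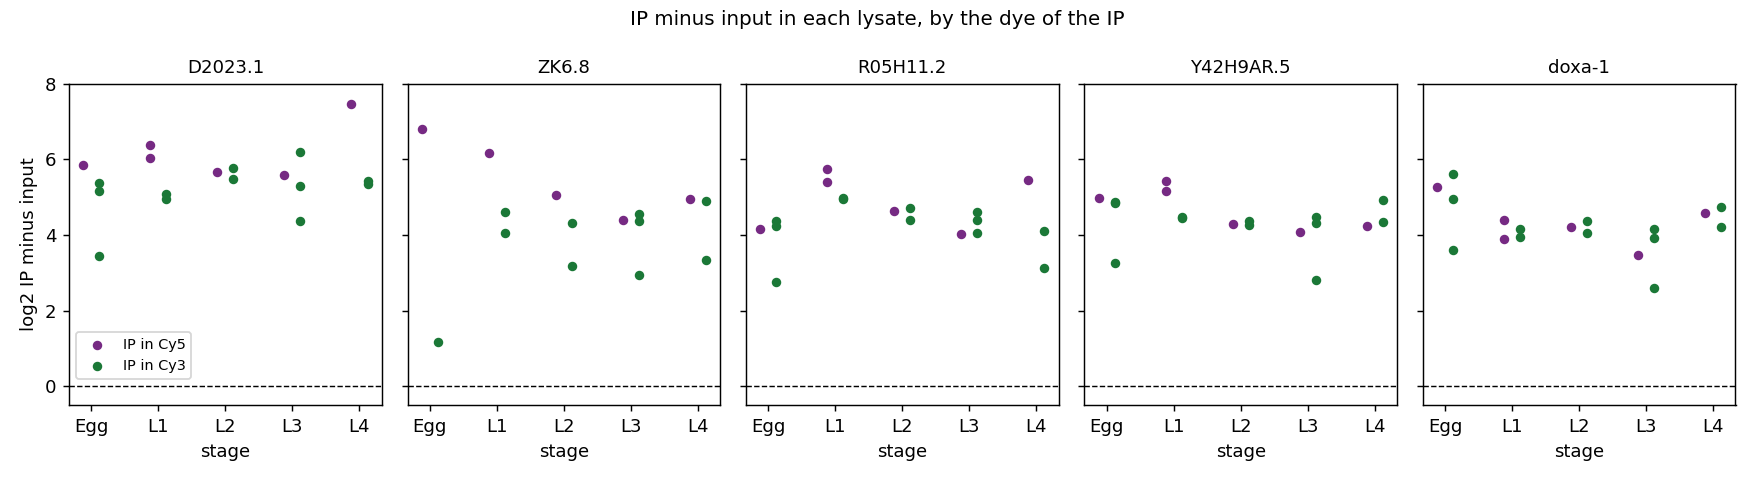
Ratio of IP to input (log2) of the 5 mRNAs in each lysate, by stage; colours give the dye that labelled the IP. D2023.1 lies between 3.45 and 7.45, and every ratio of the 5 genes is above 0.

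D2023.1 was the most enriched of the 5 and was low in eggs. The Egg IPs of replicates 1, 2, 4 and 5 were at 3.40, 4.02, 1.46 and 3.80, and the Egg inputs at -1.97, -1.85, -1.99 and -1.36. The L1 IPs of replicates 2, 5, 10 and 11 stood at 5.66, 6.16, 6.25 and 4.99, and the L1 inputs at -0.71, 1.22, 1.17 and -1.03. All larval IPs lay above all Egg IPs, and within L1 the inputs fell into a pair at 1.17 and 1.22 and a pair at -0.71 and -1.03 while the IPs spanned 4.99 to 6.25. The upper pair of inputs (replicates 5 and 10) carried the dye Cy5 and the lower pair (replicates 2 and 11) the dye Cy3.

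For D2023.1 at L2 (replicates 1, 2 and 3) the IPs were at 5.85, 5.40 and 5.75 and the inputs at 0.38, -0.28 and -0.01. At L3 (replicates 1, 2, 3 and 5) its IPs were at 5.40, 4.75, 6.06 and 6.08 and its inputs at 1.03, -0.82, -0.12 and 0.80. At L4 (replicates 1, 3 and 10) its IPs were at 5.27, 5.73 and 5.80 and its inputs at -0.07, 0.31 and -1.65. The 4 larval stages overlap one another in both fractions, and only the L4 input of replicate 10 reaches into the Egg range.

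In total RNA D2023.1 rose between eggs and larvae. It was higher than in eggs by 2.26 ± 0.389 at L1 (limma adjusted p = 0.000381, 22.6% of features called), by 1.92 ± 0.415 at L2 (adjusted p = 0.00303, 18.6% called), by 2.01 ± 0.383 at L3 (adjusted p = 0.00104, 19.4% called) and by 1.42 ± 0.415 at L4 (adjusted p = 0.0217, 18.6% called). None of its 6 differences between larval stages was called in total RNA. Without the 4 lysates with bright inputs the L1, L2 and L3 differences were 2.09, 1.76 and 2.23, and all 3 remained called. The L4 call ended without Egg replicate 1 (1.26, adjusted p = 0.0624), without L4 replicate 1 (1.42, adjusted p = 0.0533), without L4 replicate 3 (1.22, adjusted p = 0.103), without the 4 lysates with bright inputs (1.26, adjusted p = 0.0631), with centred columns (1.35, adjusted p = 0.0509) and without the dye term (1.32, adjusted p = 0.13).

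The IP level of D2023.1 was lowest in eggs as well. It was higher than in Egg IPs by 2.66 ± 0.451 at L1 (adjusted p = 0.00107, 6.76% of features called), by 2.52 ± 0.480 at L2 (adjusted p = 0.00239, 7.86% called), by 2.40 ± 0.444 at L3 (adjusted p = 0.00161, 8.55% called) and by 2.45 ± 0.480 at L4 (adjusted p = 0.00336, 7.41% called). No D2023.1 spot of an Egg IP was saturated, and without the lysates with saturated spots the L1 and L2 differences were 2.65 and 2.51. Without the 4 lysates with bright inputs the differences from Egg IPs were 2.08 for L1, 1.93 for L2, 1.90 for L3 and 2.08 for L4, and without Egg replicate 4 alone they were 2.09, 1.93, 1.80 and 1.86 in the same order of stages. All remained called (adjusted p from 0.000563 to 0.00982). The L1 increases of total RNA (1.58, adjusted p = 0.226) and of the IP (2.65, adjusted p = 0.283), and the L4 increase of the IP (2.56, adjusted p = 0.0613), were not called in the lysates of one title spelling. These are the lysates whose input is titled tot and not Tot, a difference the labels do not explain, and L1 has 1 of them.

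The ratio of D2023.1 was 4.96 ± 1.05 in the 4 Egg lysates (mean ± SD), 5.60 ± 0.70 in the 4 of L1, 5.63 ± 0.15 in the 3 of L2, 5.35 ± 0.76 in the 4 of L3 and 6.07 ± 1.20 in the 3 of L4. These means differ by less than the range of the Egg lysates or of the L4 lysates. The lowest ratio was 3.45 in Egg replicate 4, and the highest was 7.45 in L4 replicate 10, whose input was the lowest of the larvae. L4 replicate 10 was the only L4 lysate with the IP in Cy5, and the other L4 ratios were 5.34 and 5.42. The mean over stages was 5.62 without the lysates with saturated spots and 5.75 without those with bright inputs.

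R05H11.2 peaked at L1 in both fractions. Its L1 IPs were at 4.53, 5.64, 5.25 and 4.59 and its L1 inputs at -0.86, 0.67, 0.30 and -1.17. In eggs the R05H11.2 IPs were at 1.86, 1.38, -0.71 and 1.03 and the inputs at -2.37, -2.78, -3.47 and -3.34. Every L1 value lies above every Egg value of the same fraction. The L1 inputs at 0.67 and 0.30 carried Cy5, and those at -0.86 and -1.17 carried Cy3.

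At L2 the R05H11.2 IPs were at 3.50, 3.00 and 2.72 and the inputs at -1.20, -1.64 and -1.67. The L3 IPs stood at 3.28, 1.56, 0.89 and 3.39 and the L3 inputs at -1.34, -2.46, -3.17 and -1.01. The L4 IPs stood at -0.10, -0.23 and 2.86 and the L4 inputs at -4.20, -3.36 and -2.59. All 4 L1 IPs were above the IPs of every other stage. The inputs of L1 overlapped those of L3 alone, and L3 and L4 were spread over more than 2 log2 units in their IPs.

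In total RNA R05H11.2 was 2.79 ± 0.535 higher at L1 than in eggs (adjusted p = 0.000957, 22.6% of features called) and 3.16 lower at L4 than at L1 (a difference of -3.16 ± 0.572, adjusted p = 0.00195, 7.93% called). In the IP it was 4.06 ± 0.690 higher at L1 than in eggs (adjusted p = 0.00107, 6.76% called), and L4 differed from L1 by -4.12 ± 0.738 (adjusted p = 0.00348, 2.46% called). The means of L2 and L3 lay between those of L1 and L4, and the difference of L3 from L1 was not called in either fraction (-1.80, adjusted p = 0.0781, in total RNA and -2.66, adjusted p = 0.0528, in the IP). Without the 4 lysates with bright inputs the differences were 2.63 and -2.71 in total RNA and 3.55 and -3.69 in the IP, all called (adjusted p from 0.000438 to 0.0078). Without L4 replicate 10 the difference of L4 from L1 was -3.81 in total RNA and -5.35 in the IP, and without L4 replicate 3 it was -3.62 in the IP, all called. In the lysates of one title spelling, with a single L1 lysate, the differences were 2.07 and -3.01 in total RNA and 3.65 and -4.64 in the IP, and none was called (adjusted p from 0.212 to 0.301).

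The R05H11.2 ratio was 3.88 ± 0.75 in the 4 Egg lysates (mean ± SD), 5.27 ± 0.38 in the 4 of L1, 4.58 ± 0.17 in the 3 of L2, 4.28 ± 0.28 in the 4 of L3 and 4.23 ± 1.16 in the 3 of L4. The 4 L1 ratios (5.40, 4.97, 4.95 and 5.76) lie above the 4 Egg ratios (4.23, 4.16, 2.76 and 4.36). The fitted difference of 1.26 ± 0.412 between L1 and Egg was not called (adjusted p = 0.126, 2.38% of features called). Across the 18 lysates its IP level tracked its input level with a Pearson r of 0.951, or 0.832 after stage means were removed, where the other 4 genes had r from 0.475 (doxa-1) to 0.804 (ZK6.8, 15 lysates). Both channels of a lysate share an extract and a normalization, so this is a description of these arrays.

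**Figure D2:**
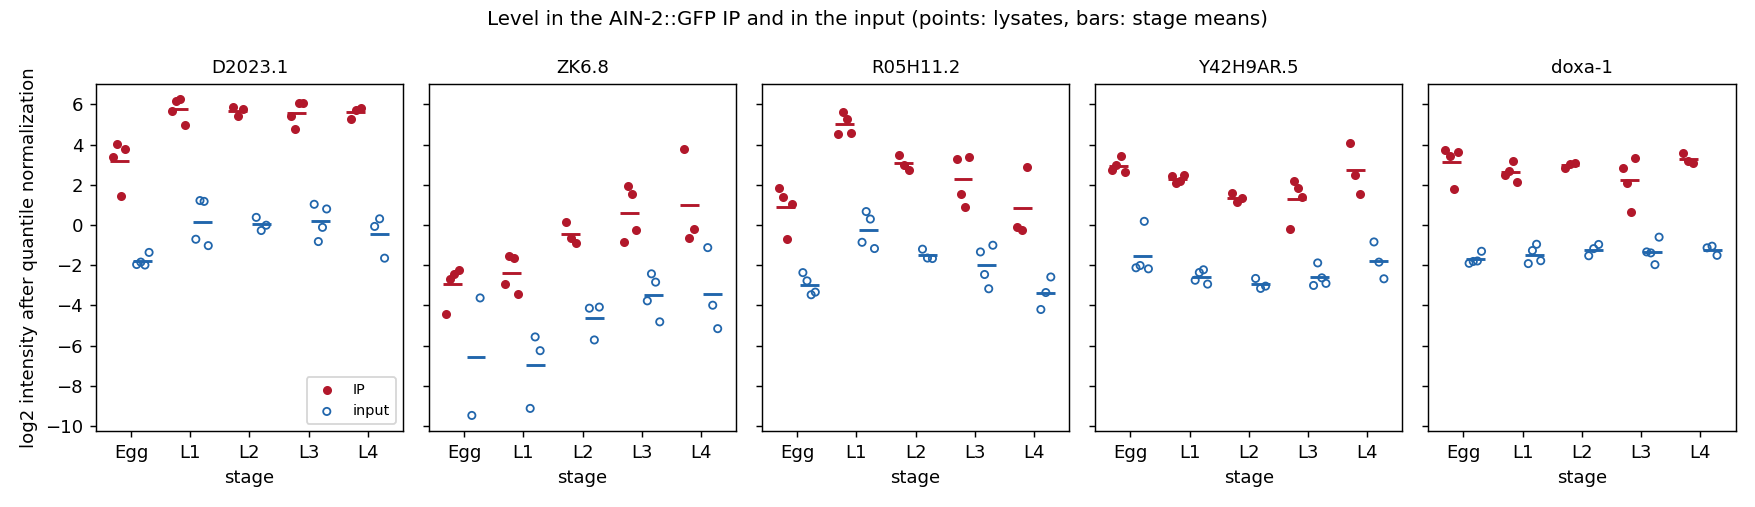
Level (log2 normalized intensity) of the 5 mRNAs in the IP and in the input of each lysate, by stage; each point is 1 lysate and short bars mark the stage means. R05H11.2 is highest at L1 in both fractions, D2023.1 is lowest at Egg, and the ZK6.8 IPs of L2, L3 and L4 lie above those of Egg and L1.

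ZK6.8 was the faintest of these signals relative to background. Its spot was above background in 17 of 18 IPs and in 11 of 18 inputs, and in 3 inputs (Egg replicates 1 and 5, L1 replicate 11) the deposited value was 0 or less, so that 15 lysates have a ratio. Only 1 of 4 inputs at Egg, 1 of 4 at L1 and 2 of 3 at L2 were above background. The other genes of the set were above background in all 36 samples.

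The ZK6.8 IPs were at -4.42, -2.68, -2.46 and -2.26 in eggs, at -2.96, -1.53, -1.65 and -3.45 at L1, and at 0.17, -0.65 and -0.91 at L2. At L3 its IPs were at -0.84, 1.96, 1.52 and -0.27, and at L4 they were at 3.77, -0.64 and -0.21. All L2, L3 and L4 values lie above all Egg and L1 values. The 3 brightest of these IPs, L3 replicates 2 and 3 and L4 replicate 1, belong to the lysates with bright inputs.

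The measured ZK6.8 inputs were at -9.47 and -3.63 in Egg replicates 2 and 4, and at -9.12, -5.57 and -6.25 in L1 replicates 2, 5 and 10. At L2 the inputs stood at -4.14, -5.72 and -4.08, at L3 at -3.77, -2.43, -2.84 and -4.82, and at L4 at -1.13, -3.99 and -5.16. Levels near -9 correspond to 1 scanner step and lie within background. The highest input was again L4 replicate 1, with 1494 steps against a median of 20 over the 18 inputs.

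In the IP, ZK6.8 was 3.55 ± 0.854 higher at L3 than at Egg (adjusted p = 0.0128, 8.55% of features called) and 3.96 ± 0.924 higher at L4 (adjusted p = 0.0117, 7.41% called). The L4 difference was 2.53 and not called without L4 replicate 1 (adjusted p = 0.0762), nor was it called with centred columns (3.57, adjusted p = 0.0816). That of L3 was not called without Egg replicate 1 (3.02, adjusted p = 0.0516) or without L3 replicate 2 (2.87, adjusted p = 0.0572), and neither was called in the lysates of one title spelling, where the differences were larger (4.06, adjusted p = 0.0526, for L3 and 4.98, adjusted p = 0.055, for L4). In total RNA no stage difference of ZK6.8 was called (lowest adjusted p = 0.0795, L4 minus L1), and ZK6.8 could not be fitted without Egg replicate 2, without Egg replicate 4 or without the lysates with bright inputs, which leave fewer than 2 Egg ratios.

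The ZK6.8 ratios ran between 1.17 in Egg replicate 4 and 6.79 in Egg replicate 2, the lysate whose input was 1 step. Ratios averaged 4.94 ± 1.10 in 3 L1 lysates (mean ± SD), 4.18 ± 0.95 in 3 of L2, 4.06 ± 0.75 in 4 of L3 and 4.40 ± 0.91 in 3 of L4, and the ranges of these 4 stages overlap. Where both spots were above background (11 lysates) the median ratio was 4.31 and the highest 4.95. With an offset of 0.1 added to every value before log2 the mean over stages was 2.28. The size of the ZK6.8 ratio therefore moves with how values near 0 are treated, more than that of the other 4 genes, which stayed between 3.87 and 5.95 under every alternative tried.

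Y42H9AR.5 had its highest means in eggs and at L4, in both fractions. In eggs its IPs were at 2.75, 2.96, 3.44 and 2.66 and its inputs at -2.13, -2.02, 0.18 and -2.18. The L1 IPs were at 2.42, 2.11, 2.21 and 2.48 and the L1 inputs at -2.75, -2.36, -2.23 and -2.94. The L2 IPs were at 1.61, 1.13 and 1.33 and the L2 inputs at -2.66, -3.16 and -3.04. The IPs of Egg, L1 and L2 form 3 bands that do not overlap.

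At L3 the Y42H9AR.5 IPs were at -0.21, 2.20, 1.84 and 1.41 and the inputs at -3.01, -1.89, -2.63 and -2.90. At L4 they were at 4.09, 2.51 and 1.56 in the IPs and at -0.84, -1.85 and -2.68 in the inputs. Egg replicate 4 and L4 replicate 1 are the 2 lysates with the highest level in both fractions, and both are lysates with bright inputs.

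No stage difference of Y42H9AR.5 was called in total RNA, where the closest was L2 minus Egg (-1.39 ± 0.549, adjusted p = 0.0914). In the IP, L3 differed from Egg by -1.64 ± 0.490 (adjusted p = 0.043, 8.55% of features called), but the F test over stages was not called (adjusted p = 0.0862). That single call was lost in 21 of 29 alternatives, among them the omission of any 1 of 14 lysates, which are all Egg, L1 and L2 lysates and L3 replicates 1, 3 and 5 (-1.12 without L3 replicate 1 to -1.82 without L3 replicate 3, adjusted p from 0.0516 to 0.129). Without the 4 lysates with bright inputs it was -2.22 (adjusted p = 0.00863).

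The Y42H9AR.5 ratio was 4.49 ± 0.82 in the 4 Egg lysates (mean ± SD), 4.88 ± 0.49 in the 4 of L1, 4.31 ± 0.06 in the 3 of L2, 3.92 ± 0.76 in the 4 of L3 and 4.51 ± 0.37 in the 3 of L4. The L2 lysates were within 0.11 of each other, at 4.26, 4.29 and 4.37. The lowest single ratio was 2.80 in L3 replicate 1, the array with the smallest share of IP spots above background (31%).

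The input level of doxa-1 had the narrowest range of the 5. In eggs its IPs were at 3.71, 3.44, 1.80 and 3.63 and its inputs at -1.91, -1.81, -1.79 and -1.31. At L1 the IPs were at 2.48, 2.68, 3.20 and 2.12 and the inputs at -1.92, -1.27, -0.96 and -1.78. At L2 they were at 2.85, 3.02 and 3.08 in the IPs and at -1.53, -1.18 and -0.97 in the inputs. The stages overlap in both fractions, and Egg replicate 4 is the low point of the Egg IPs.

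The L3 lysates had doxa-1 at 2.81, 2.09, 0.64 and 3.33 in the IP and at -1.34, -1.39, -1.97 and -0.60 in the input. The L4 lysates had it at 3.59, 3.17 and 3.08 in the IP and at -1.14, -1.05 and -1.51 in the input. The whole range of the 18 inputs was 1.37 on the log2 scale, against 3.21 for D2023.1, 3.34 for Y42H9AR.5 and 4.87 for R05H11.2. The F test over stages was called neither in total RNA (adjusted p = 0.708) nor in the IP (adjusted p = 0.494).

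The doxa-1 ratio was 4.85 ± 0.88 in the 4 Egg lysates (mean ± SD), 4.10 ± 0.23 in the 4 of L1, 4.21 ± 0.17 in the 3 of L2, 3.54 ± 0.68 in the 4 of L3 and 4.51 ± 0.26 in the 3 of L4. Its mean ratio was thus highest in eggs, the stage with the lowest mean ratios of D2023.1, ZK6.8 and R05H11.2. The Egg mean of ZK6.8 rests on 2 lysates, at 1.17 and 6.79, and no stage difference of ratio was called for any of the 5. For doxa-1 the difference of L3 from Egg, -1.31 ± 0.394, was the closest of all stage differences of ratio to a call (adjusted p = 0.0823, 3.01% of features called). The ratios of the 2 stages overlap through Egg replicate 4 (3.59).

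Stage calls were made for the levels of these mRNAs and not for their ratios, though whether level and ratio differ in this was not tested. In total RNA the F test over stages called 2 of the 5, D2023.1 (adjusted p = 0.00154) and R05H11.2 (adjusted p = 0.00203), where it called 25% of all features. Among IP levels it called 3 of the 5, D2023.1 (adjusted p = 0.0018), R05H11.2 (adjusted p = 0.00249) and ZK6.8 (adjusted p = 0.0141), against 10.3% of features. For the ratio it called 0 of the 5 (limma adjusted p from 0.31 to 0.889, 1 at an unadjusted p under 0.05), against 2.7% of features.

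Over the 10 pairs of stages, 9 of 50 differences were called in the IP level, against 3.67% over all features, and 6 of 50 in total RNA, against 9.5%. The differences of a gene share stage means and all genes share lysates. The 50 are therefore not independent, and whether these counts differ from the shares was not tested. For the ratio limma called 0 of 50, against 1.04%, with 6 at an unadjusted p under 0.05 and a largest size of 1.31. SEs of such a difference ran from 0.394 (doxa-1, L3 minus Egg) to 1.01 (ZK6.8, L1 minus Egg). The difference of 1.31, doxa-1 L3 minus Egg, had the smallest of these SEs and was still not called. Changes of the ratio of that size could therefore have been missed for any of these genes. Larger ones could have been missed where the SE was larger, most of all for ZK6.8.

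The dye that labelled the IP moved with some ratios. The IP carried Cy5 in 6 lysates and Cy3 in 12. The D2023.1 ratio averaged 6.16 (SD 0.69, n = 6) with the IP in Cy5 and 5.15 (SD 0.69, n = 12) with the IP in Cy3, and that of ZK6.8 averaged 5.47 (SD 0.98, n = 5) in Cy5 and 3.74 (SD 1.12, n = 10) in Cy3. That of R05H11.2 averaged 4.91 in Cy5 (SD 0.73) and 4.22 in Cy3 (SD 0.67). Those of Y42H9AR.5 (4.70 in Cy5 and 4.28 in Cy3) and doxa-1 (4.30 in Cy5 and 4.19 in Cy3) differed by less than the SDs within a dye. The dye was a term of every fit, and each of the 5 ratios was far above 0 in both orientations.

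**Figure D3:**
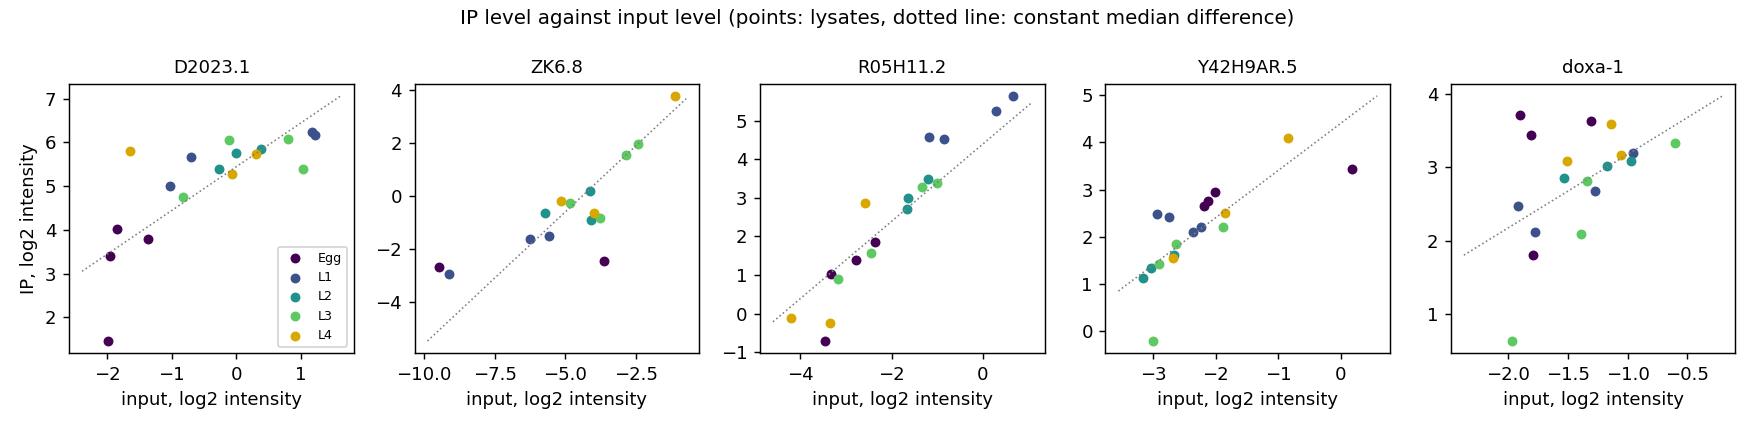
Level in the IP (vertical axis) against level in the input (horizontal axis) of the same lysate for the 5 mRNAs, both as log2 normalized intensity; colours give the stage and the dotted line marks a constant difference at the gene's median ratio. The R05H11.2 points run along that line (r = 0.951 over 18 lysates), and those of doxa-1 fill a narrow range of input levels.

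Egg replicate 4 had the lowest Egg ratio of all 5 mRNAs. It stood at 3.45 for D2023.1, 1.17 for ZK6.8, 2.76 for R05H11.2, 3.26 for Y42H9AR.5 and 3.59 for doxa-1, where the other Egg lysates with a ratio had 4.16 or more. Its input array had 165 spots over 65000 steps, and the 99th percentile of all ratios in that lysate was 3.61, against 3.62 to 4.24 in the other Egg lysates. The part of the bright array in this was not tested. Without the 4 lysates with bright inputs the ratio over all stages was 4.68 for R05H11.2, 4.44 for Y42H9AR.5 and 4.42 for doxa-1.

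The 5 mRNAs did not share a developmental pattern. Across the inputs, Pearson r between pairs of them ran from -0.55 (R05H11.2 and Y42H9AR.5) to 0.64 (D2023.1 and doxa-1). The ratios of the same pairs correlated with r from 0.10 (D2023.1 and doxa-1) to 0.78 (ZK6.8 and Y42H9AR.5), over 18 lysates or 15 where ZK6.8 is in the pair. All ratios of a lysate come from the same pair of channels, which share their dye and depth.

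Genes with the most similar input pattern were found for each mRNA among 9805 named genes measured in every input (10093 for the 15 inputs of ZK6.8). The closest to R05H11.2 were glb-33 (r = 0.94), npr-29 (0.92) and ZK863.8 (0.90), over 18 inputs. Of these, npr-29 is also among the 10 highest ratios, at 4.42. The closest to D2023.1 were T01H3.2 (r = 0.84), nlp-101 (0.83) and epic-1 (0.83), and the closest to Y42H9AR.5 were C50B8.4 (0.95), F28C1.1 (0.93) and D1037.1 (0.91). In the same order, Spearman rank correlations were 0.89, 0.87 and 0.78 for D2023.1 and 0.84, 0.75 and 0.77 for Y42H9AR.5, whose Egg replicate 4 input stood apart. Each r is the highest of many genes searched and was not tested. Those of ZK6.8 were F52G2.3 (0.93), dpf-5 (0.92) and fars-2 (0.92), over 15 inputs, of which 11 were above background. Their Spearman rank correlations were 0.85, 0.84 and 0.96. For doxa-1 the Pearson r values were lower, with pygl-1 (0.75), mrp-7 (0.74) and exp-1 (0.73).

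The ratios of these genes ranged widely. The ratio of nlp-101 was 3.17 and that of epic-1 3.22, while T01H3.2 stood at 0.25. The ratio of mrp-7 was 2.51 and that of exp-1 2.02, while pygl-1 was at -0.40. Near Y42H9AR.5 in input pattern, C50B8.4 had a ratio of 1.33, F28C1.1 one of -0.65 and D1037.1 one of -0.83. Of the genes near ZK6.8, dpf-5 was at -0.63 and fars-2 at -1.38, and F52G2.3 had no fitted ratio.

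By the pattern of the ratio over lysates, among 6618 named genes (6921 for ZK6.8), the closest to R05H11.2 was Y22D7AL.7 (r = 0.94), followed by spig-13 (0.85) and sto-1 (0.84). For Y42H9AR.5 these were rbx-2 (0.91), lgc-51 (0.88) and orai-1 (0.85), and for ZK6.8 they were F16C3.1 (0.91), F42G4.5 (0.86) and btb-9 (0.85). D2023.1 was closest to tbb-2 (0.81), M03E7.1 (0.80) and bre-3 (0.80), and doxa-1 to B0454.6 (0.83), Y54F10AM.8 (0.82) and arrd-22 (0.78). Spearman rank correlations of these pairs ran from 0.54 (D2023.1 and M03E7.1) to 0.91 (R05H11.2 and Y22D7AL.7). Depth and dye are shared by all ratios of a lysate, and tbb-2, a tubulin gene, was on average below its input (-0.52) and Y54F10AM.8 as well (-1.56).

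The other genes of the dual oxidase pathway had lower ratios than doxa-1 (4.26). Since doxa-1 was chosen for its high ratio, this order follows largely from the choice. Of 10 listed genes 8 could be tested, and limma called 3 of the 8 higher in the IP, 0 lower and 5 not at all, where it called 19.1% of all features higher and 25.1% lower. The median ratio of the 8 was 0.30, against -0.09 over all features. Called higher were mlt-7 (2.12 ± 0.142, adjusted p = 1.84e-10, above 0 in 18 of 18 lysates), tsp-15 (1.58 ± 0.147, adjusted p = 2.1e-08, 18 of 18) and skpo-2 (0.81 ± 0.110, adjusted p = 4.47e-06, 17 of 18). MLT-7 is a peroxidase of the epidermis needed for molting, and TSP-15 is the tetraspanin partner of the maturation factor.

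The oxidase genes themselves were not called. The mean ratio was 0.41 ± 0.198 for bli-3 (adjusted p = 0.0984, above 0 in 13 of 18 lysates) and 0.19 ± 0.380 for duox-2 (adjusted p = 0.726, 10 of 18). These 2 genes are close copies, and whether their probes tell them apart was not tested. bli-3 has 3 probes, and it was called with the brightest of them (0.81, adjusted p = 0.000462), with the values as deposited (0.53, adjusted p = 0.0377) and with loess (0.59, adjusted p = 0.0135). The peroxidase gene skpo-1 (-0.03) and the peroxidasin genes pxn-1 (-0.82) and pxn-2 (-0.69) had values that did not pass the test, and their IP spots were above background in only 8, 8 and 11 of 18 lysates. Without L3 replicate 1, pxn-2 was called lower (-0.81, adjusted p = 0.0396). The skpo-2 call ended when columns were centred (0.58, adjusted p = 0.0545), and skpo-3 and memo-1 were not analysed here.

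Of the 3 called genes, the ratio of mlt-7 differed between stages (F test, adjusted p = 0.00485, 2.7% of features called), with lysates between 0.81 and 4.47. That of skpo-2 also differed (adjusted p = 0.0228), between -0.15 and 2.31, whereas for tsp-15 (0.26 to 2.74) the F test was not called (adjusted p = 0.366). In total RNA the list shows 1 called increase at L1 over Egg, that of mlt-7 (1.50, adjusted p = 0.0355, 22.6% of features called). The doxa-1 input differed there by 0.30 ± 0.335, which was not called (adjusted p = 0.586).

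**Figure D4:**
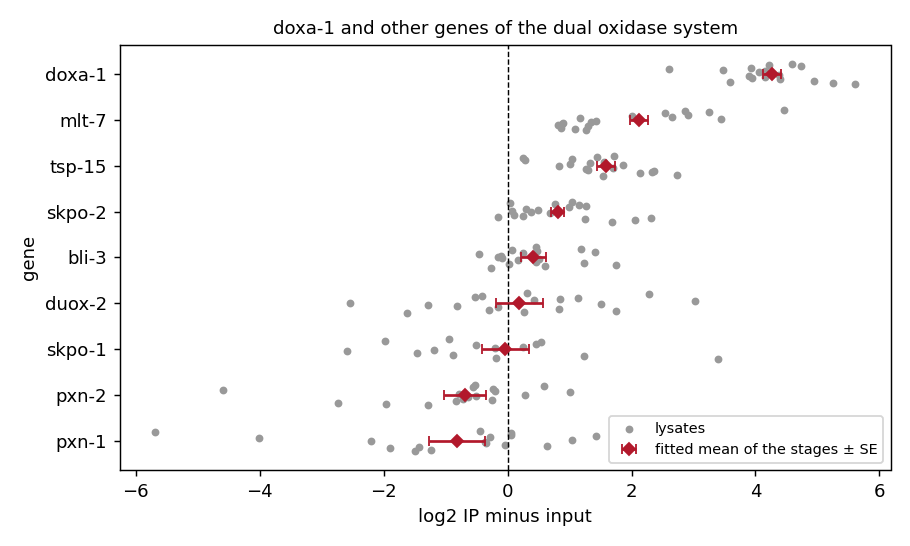
Ratio of IP to input (log2) of doxa-1 and of the measured dual oxidase pathway genes in each lysate; each grey point is 1 lysate and the diamond marks the fitted mean of the stages with its SE. The doxa-1 points run between 2.61 and 5.61, and those of bli-3 between -0.45 and 1.75.

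Ratios of neighbouring genes on the chromosome were lower. The 5 were chosen for high ratios, so lower values in neighbours follow largely from that choice. Of the 10 nearest protein-coding genes, 1 on either side of each of the 5, 7 could be tested, with ratios between -0.71 and 2.56. limma called 1 of the 7 higher, glr-1 beside doxa-1 (2.56 ± 0.330, adjusted p = 2.08e-06), a glutamate receptor gene, where 19.1% of features were called higher. Beside D2023.1, F55A11.8 stood at 0.06 and D2023.3 at 0.01. Beside Y42H9AR.5, Y42H9AR.2 stood at -0.71, and rabs-5, which overlaps Y42H9AR.5 and was not analysed here, could share signal with its probe. These neighbours were looked up after the ratios were known.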

How the data were processed

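The members and the gene lists were chosen with earlier results of these data known. Spotted oligonucleotide arrays were read in 2 colours, with the IP and the input of a lysate as the 2 channels. RNA was amplified 1 time before labelling, per the labels. The deposited values are background-subtracted intensities on a linear scale with column means close to 1; the scanner, image software, scaling and probe build are not given in the sources used here. In each column all values of up to 50 steps lay within 0.05 of a whole multiple of the smallest value, taken as 1 scanner step; larger values were not tested for this.

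Values of 0 or less were set missing. All others were log2 transformed, and the 36 columns were then quantile normalized. Probes of a gene were averaged. Features with at least 2 complete lysates in every stage were tested (15732). limma 3.58.1 (R 4.3.3) was fitted to IP minus input differences (which blocks on the lysate), to the 18 inputs and to the 18 IPs, each with stage and dye and a variance trend on level. Calls have a Benjamini-Hochberg adjusted p under 0.05 over all features. Adjusted p-values in the report are from these limma fits. SEs are of the fit, and SDs are over lysates.

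The IP and input of a lysate deviated together from their stage means (r from 0.246 to 0.605 in 18 of 18). Title numbers do not pair lysates of different stages, since cultures were independent per the labels.

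Genes named are the 5 mRNAs, a list of 10 dual oxidase genes, the 10 highest ratios and the 3 next, and for each mRNA the 3 genes most alike in input level and in ratio. Neighbours were read from RefSeq's WBcel235 gene table, used for order only. The scripts were tested on simulated data. Alternatives were the scaling (as deposited, centred, loess), an offset of 0.1, a filter on dim genes, the brightest probe, no dye term, one title spelling of the inputs, each lysate left out, a block on the title number and no lysate block. The omission of lysates with saturated or bright arrays was added after seeing the data. Python 3.11.15 prepared the tables.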

Additional observations from a re-analysis of the deposited data

Results flagged for a closer look

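In groups of 4 lysates a value was singled out when its gap to the nearest other, as a share of the range of the group, exceeded Dixon's critical value. This held for 5 of 41 groups of the 5 mRNAs. For a single group chance alone gives about 1 in 20. The groups share lysates, and each ratio is computed from levels that form other groups. The count of 5 therefore cannot be set against that rate. Egg replicate 4 gave 4 of the 5. Its Y42H9AR.5 ratio was 3.26, against 4.84 to 4.98 in the other Egg lysates, and its Y42H9AR.5 input level was 0.18, against -2.18 to -2.02. Its R05H11.2 ratio was 2.76, against 4.16 to 4.36, and its doxa-1 level in the IP was 1.80, against 3.44 to 3.71. The remaining value is the ZK6.8 ratio of L3 replicate 1, at 2.93 against 4.36 to 4.55 in the other L3 lysates. That IP array had the smallest share of spots above background (31%).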

How the results depend on the processing

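The ratios of the 5 mRNAs stayed above 0 under every alternative run, with a median of 3.94 (offset of 0.1 before log2) to 4.72, and 4.49 to 4.62 when 1 lysate was left out. With the offset, 1 mRNA (ZK6.8) had a ratio called different between stages instead of 0, and leaving out 1 lysate gave 0 throughout. In total RNA the number of the 5 called by the F test was 2, with 4 for the values as deposited, 1 in the lysates of one title spelling and 2 to 3 with 1 lysate left out. For IP levels it was 3, with 0 in the lysates of one title spelling, which have fewer samples, and 2 to 4 with 1 lysate left out. With the title number as a replicate block 2 of the 5 were called in total RNA, 2 in IP levels and 0 in the ratio, and the median ratio was 4.65. It was 4.47 without the pairing of IP and input. Under that block the calls of R05H11.2 (L4 minus L1 in total RNA, -3.52, adjusted p = 0.0512), ZK6.8 (L4 minus Egg in the IP, 5.34, adjusted p = 0.0598) and Y42H9AR.5 (L3 minus Egg in the IP, -1.43, adjusted p = 0.16) ended, and no other; the R05H11.2 and ZK6.8 differences were larger than without it. Title numbers gave r from -0.21 to 0.36 between stages, and 6 of 16 inputs correlated best with their own number. The skpo-1 ratio changed sign to 0.16 as deposited, 0.042 centred, 0.07 without Egg replicate 4, 0.034 without L4 replicate 3 and 0.11 without L4 replicate 10 (lowest -0.32, without Egg replicate 2), and that of duox-2 to -0.13 without the lysates with saturated D2023.1 spots. The causes were not tested. Of the 5 mRNAs, signal over background limits ZK6.8 most, whose input was above it in 11 of 18 lysates.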
